A study of Mus musculus with 12 samples.

Results

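The cytosolic ribosomal protein genes were taken as the protein-coding genes whose symbols follow the Rpl, Rps and Rplp series or read Rpsa. The rule found 83 of the 25683 genes listed for each library, of which 52 belong to the large and 31 to the small ribosomal subunit. RNA was sequenced from J774.1 cells, a macrophage-like line from a BALB/c mouse. The cells were wild type (WT), Rictor-KO or GATA3-KO, and each genotype received DMSO, the solvent control, or isorhamnetin at 10 µM for 6 h, with 2 libraries in each of the 6 groups. Isorhamnetin, labelled IR, is a methylated flavonol of plants. Rictor belongs to the kinase complex mTORC2. GATA3 is a zinc finger transcription factor. The labels name 1 line per knockout, so a knockout and the history of its line cannot be told apart, and they do not tie replicates to separate cultures. The p-values therefore reflect the spread of libraries, which may be technical. In Rictor-KO the libraries numbered 1 and 2 differed alike under both treatments in some macrophage markers, as given below.

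Each cytosolic ribosome holds about one copy of most of these proteins around its RNA core, and cells keep their synthesis in balance. Most of the mRNAs begin with a run of pyrimidines at the cap, the terminal oligopyrimidine motif, through which the kinase mTORC1 controls their translation. RNA-seq of total RNA measures the amount of mRNA and not its translation. Ribosomal protein mRNAs are short and among the most abundant of a growing cell.

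Start regions were available from RefSeq (GRCm38.p6) for 63 of the 83 genes. The pyrimidine run at the start is a feature that the choice of genes did not use, and not every listed start has it. Start regions of genes with large changes, or with almost none, are shown. Each runs from 30 bases before the start to 20 bases from it on, and capitals mark the longest pyrimidine run of at least 5 bases that touches the 10 bases on either side of the start. For genes with several listed starts, 1 is shown.
Rps21 (chr2:180257349-180257398, plus strand): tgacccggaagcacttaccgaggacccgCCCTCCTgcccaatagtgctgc
Rps9 (chr7:3704011-3704060, plus strand): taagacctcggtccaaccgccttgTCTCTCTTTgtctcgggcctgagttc
Rps25 (chr9:44407684-44407733, plus strand): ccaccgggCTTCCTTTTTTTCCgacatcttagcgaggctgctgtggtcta
Rps10 (chr17:27635225-27635274, minus strand): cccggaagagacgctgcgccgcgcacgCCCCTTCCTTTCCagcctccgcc
Rps26 (chr10:128626487-128626536, minus strand): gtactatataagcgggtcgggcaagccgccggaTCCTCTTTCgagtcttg
Rpl39 (chrX:37085203-37085252, minus strand): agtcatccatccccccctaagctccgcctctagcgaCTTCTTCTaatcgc
Rpl23 (chr11:97782420-97782469, minus strand): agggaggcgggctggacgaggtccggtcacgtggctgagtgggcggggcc

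A pyrimidine run of at least 8 bases touched that interval in 29 of the 63 genes (46.0%) and in 15.7% of 26962 other genes. A C followed by 4 pyrimidines stood exactly at the listed start in 13 of them (20.6%), against 2.97% of the other genes. CCGGAAG, a core of ETS factor sites, was found on either strand of the 300-base windows in 25 (39.7%), against 9.86%, and TATAAA in 7 (11.1%), against 15.7%. Of the genes shown, Rps10 had a run of 13 bases and Rps25 one of 14, Rps21 one of 7, and the start listed for Rpl23 held none above 3.

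The 12 libraries held between 35671457 and 53099804 exon reads, and levels are given as CPM, counts per 1000000 reads, after TMM scaling. Rictor stood between 23.0 and 34.3 CPM in the 4 Rictor-KO libraries, between 27.6 and 36.2 CPM in the 4 GATA3-KO libraries and between 43.7 and 63.0 CPM in the 4 WT libraries. Gata3 stood between 0.282 and 0.498 CPM in GATA3-KO, between 0.331 and 0.707 CPM in Rictor-KO and between 0.814 and 1.60 CPM in WT. Neither read level separates its knockout from the other, and the sources used here do not say which exons were deleted. The 12 macrophage markers searched were all detected, with a summed level between 3064 and 11659 CPM. Summed per library, the macrophage markers reached 11442 and 11659 CPM in WT with DMSO and 7915 and 7339 CPM with isorhamnetin. In GATA3-KO they reached 3064 to 3516 CPM. In Rictor-KO they reached 5565 and 3236 CPM (DMSO), then 5763 and 3558 CPM (isorhamnetin). Rictor-KO replicates 1 and 2 stood at 2440 and 616 CPM in Lyz2 with DMSO and at 2450 and 788 CPM with isorhamnetin. In Adgre1 they stood at 26.1 and 2.70 CPM, then 37.0 and 5.73 CPM, while Ptprc differed little (246 and 260, then 224 and 229 CPM). Of the 12, 5 fell and 2 rose with isorhamnetin in WT, 3 fell and 1 rose in GATA3-KO, and 9 were lower in GATA3-KO than in WT and 8 in Rictor-KO under DMSO. Their part in the results below was not tested. Of 14 markers of lymphocytes, fibroblasts and epithelial cells, 11 had no read in any library and the summed level was at most 0.358 CPM.

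The ribosomal protein genes took the largest share of the exon reads in GATA3-KO cells, and with isorhamnetin that share was lower in WT and higher in GATA3-KO. The share was 5.38% and 5.57% in WT libraries that received DMSO, and 5.06% and 4.95% in those that received isorhamnetin. Rictor-KO gave 6.205% and 5.78% (DMSO), then 5.91% and 5.56% (isorhamnetin), so these groups overlapped. GATA3-KO gave 7.36% and 8.39% (DMSO), then 8.87% and 9.97% (isorhamnetin), above every library of the other genotypes. Group means, DMSO first, were 5.47% ± 0.139 and 5.001% ± 0.0774 for WT (SD, n = 2). They were 5.99% ± 0.301 and 5.73% ± 0.253 for Rictor-KO, and 7.87% ± 0.728 and 9.42% ± 0.779 for GATA3-KO. An exact permutation test of 2 libraries against 2 cannot reach 0.05, so the share is given as values with no test. Fewer cells of one kind and less RNA per cell cannot be told apart in bulk RNA, and a share rises when other transcripts fall.

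The ratio of large to small subunit reads was lowest in GATA3-KO. Reads of large subunit genes stood at 1.58 ± 0.0148 and 1.63 ± 0.00264 times those of the small subunit in WT with DMSO and isorhamnetin (SD, n = 2). The ratio was 1.53 ± 0.0233 in GATA3-KO with DMSO and 1.47 ± 0.0187 with isorhamnetin, and no library of GATA3-KO overlapped with one of WT. Rictor-KO, at 1.60 ± 0.0316 and 1.61 ± 0.0239, lay within the range of the WT libraries.

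**Figure D1:**
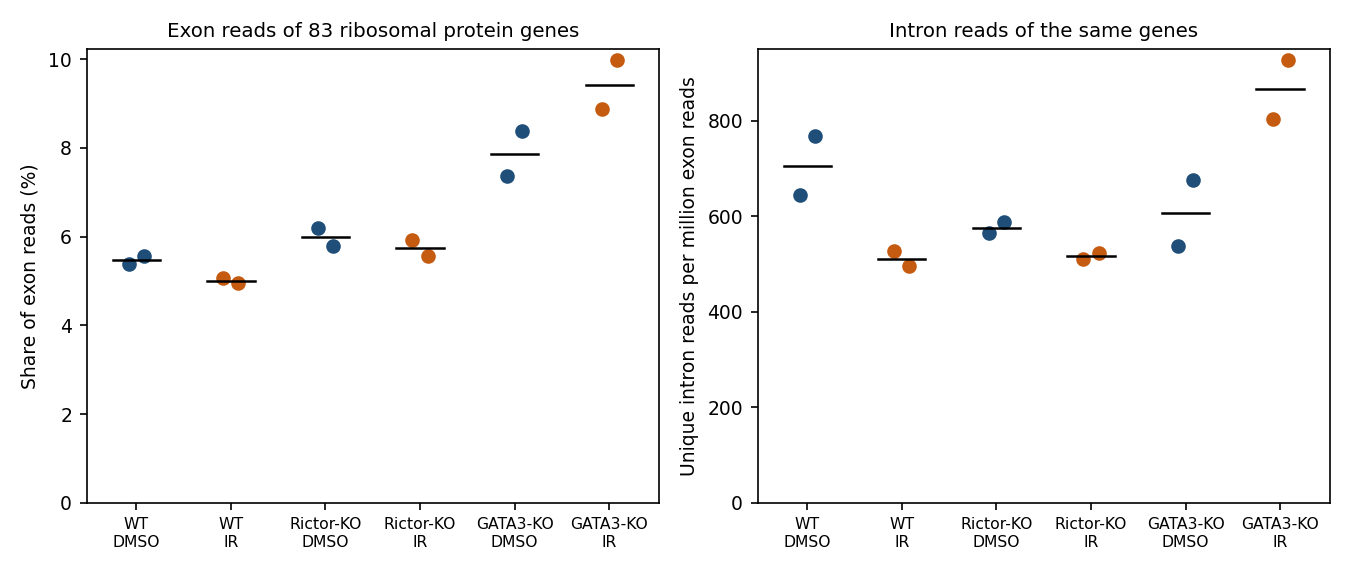
Left, share of exon reads (%) taken by the 83 ribosomal protein genes in each library; right, their unique intron reads per 1000000 exon reads. Points are libraries (blue DMSO, orange isorhamnetin) and bars group means of 2; exon shares in GATA3-KO lie between 7.36% and 9.97%, above the 6.205% reached in the other genotypes.

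Reads that fall in introns come mostly from unspliced RNA. Per 1000000 exon reads, unique intron reads of these genes came to 645 and 768 for WT DMSO and to 527 and 496 for WT isorhamnetin. Rictor-KO gave 564 and 588 (DMSO), then 510 and 524 (isorhamnetin). GATA3-KO gave 538 and 677 (DMSO), then 804 and 929 (isorhamnetin), so the libraries with isorhamnetin were the lower ones in WT and Rictor-KO and the higher ones in GATA3-KO. Under DMSO the GATA3-KO and WT libraries overlapped in intron reads, while their exon shares did not. Intron reads of all genes per 100 exon reads were 6.16 ± 0.770 and 5.36 ± 0.0872 for WT (SD, n = 2, DMSO first). They were 6.36 ± 0.210 and 5.70 ± 0.0154 for Rictor-KO and 4.87 ± 0.362 and 5.87 ± 0.388 for GATA3-KO. Of all intron reads the ribosomal protein genes held 1.15% ± 0.00238 and 0.954% ± 0.0557 in WT. That share did not move in Rictor-KO (0.906% ± 0.00390 and 0.906% ± 0.0144). In GATA3-KO it was 1.24% ± 0.110 and 1.47% ± 0.0526. The part of the intron reads of all genes in the result was not tested.

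Levels differed widely between the genes. Per kilobase of exon, a median of 707 CPM was reached over the 81 genes that passed the filter on low counts. The highest were Rplp1, an acidic stalk protein, at 2914 CPM per kilobase, Rpl4, which lines the exit tunnel, at 2008, and Rps6, the substrate of S6 kinase, at 1989. Rpl29 at 17.3, Rps18 at 11.7 and Rpl3l at 0.121 CPM per kilobase were the lowest. Rpl29 has 14 near-identical annotated copies, of which 1 was listed for the libraries, so its level is uncertain. Rpl10l and Rpl39l, testis-enriched copies of Rpl10 and Rpl39, had 0 reads in all 12 libraries and were not tested. Rpl3l, the form of Rpl3 found in muscle, had 102 reads in all and reached at most 0.705 CPM, while Rpl3 stood at 671 CPM per kilobase.

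The low level of Rps18, a protein of the small subunit head, stood beside reads counted at its copies. Over the 12 libraries Rps18 had 4308 exon reads, while the near-identical annotated copies Rps18-ps6 and Rps18-ps5, both on chromosome 13, had 514027 and 224440. The gene itself, on chromosome 17, thus held 0.58% of the summed reads. The coding sequences of 456 bases differ at 4 positions in Rps18-ps6 (T186C, A337C, G371A, G431A) and at 3 in Rps18-ps5 (T11A, A171C, A337C), counted from 1 at the A of the Rps18 start codon, with the base of Rps18 first. Bases 127 to 186 of the GENCODE M21 coding sequences show how little tells them apart, with capitals at the 2 positions that differ.
Rps18: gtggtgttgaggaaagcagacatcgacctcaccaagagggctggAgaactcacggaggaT
Rps18-ps6: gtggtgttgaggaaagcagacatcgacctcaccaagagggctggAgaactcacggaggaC
Rps18-ps5: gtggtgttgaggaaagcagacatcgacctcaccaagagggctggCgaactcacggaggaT

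Rps18 and its copies moved alike between groups. Rps18 measured 5.38 and 5.62 CPM in WT DMSO, 4.62 and 4.40 in WT isorhamnetin, 11.6 and 13.0 in GATA3-KO DMSO and 16.8 and 19.1 in GATA3-KO isorhamnetin libraries. In the same order Rps18-ps6 stood at 691 and 697, 534 and 521, 1368 and 1687, and 1883 and 2353 CPM. Under isorhamnetin the GATA3-KO level exceeded that of WT by 1.99 ± 0.17 (log2 fold change ± SE) for Rps18, 2.01 ± 0.13 for Rps18-ps6 and 2.12 ± 0.13 for Rps18-ps5, with adjusted p = 3.01e-07, 5.96e-08 and 4.25e-08. With the reads of all of them summed, the level was 948 and 986 CPM in WT with DMSO and 2771 and 3429 CPM in GATA3-KO with isorhamnetin.

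**Figure D2:**
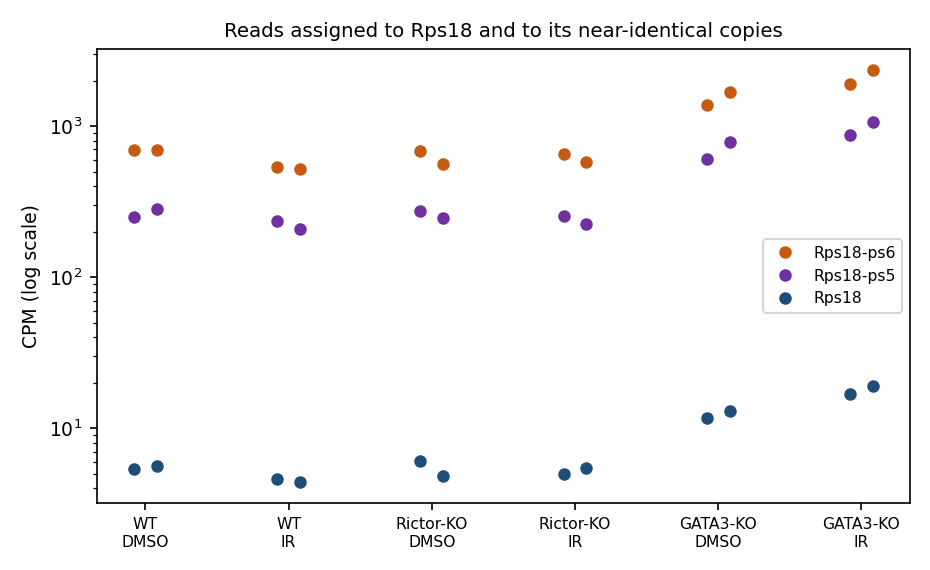
CPM (log scale) of Rps18 and of its near-identical copies Rps18-ps6 and Rps18-ps5 in each library, by group. The copies lie between 208 and 2353 CPM and Rps18 between 4.40 and 19.1 CPM, and all are highest in GATA3-KO with isorhamnetin.

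Copies were sought with a coding sequence at least 97% identical over at least 80% of its length. Those listed for the libraries took reads beside 12 of the 83 genes. Many annotated copies were not listed, so reads at them cannot be seen. Of 32 annotated copies of Rpl21 and 14 of Rpl29, 1 each was listed, and of 17 of Rpl7a and 16 of Rps12, 0. Rpl10, near the peptidyl transferase centre, had 163999 reads and Rpl10-ps3, with the same coding sequence, 432532, which left 27.5% of the sum to Rpl10. Rps27, a zinc finger protein, held 80.3% of its sum beside Rps27rt, and Rpl21 held 77.8% beside BC004004. The other 8 of the 12 held at least 97.05%. Rps27 (0.675% of exon reads unique), Rpl10 (7.78%), Rps10 (29.996%), Rpl13a (33.3%), Rps23, Rpl9, Rpl36al and Rpl35 had under 90% unique reads, so their levels are uncertain. The counts of changed genes below moved by at most 1 when each gene was summed with its listed copies. The genes called were not all the same. With isorhamnetin in WT 43 were then called, 41 of them among the 44 of the main fit.

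In WT cells isorhamnetin lowered the mRNA of many ribosomal proteins by a small amount. Of the 81 genes tested, 44 fell at an adjusted p under 0.05 (edgeR's quasi-likelihood test), 29 of 50 large and 15 of 31 small subunit genes, and 0 rose (0 at an unadjusted p under 0.05, 0 by DESeq2). Over all 11808 genes tested, 18.3% fell and 19.8% rose. The median log2 fold change was -0.28 over the 81 genes and 0.01 over all genes, and 80 of the 81 values were negative. The exception was Rpl39, at the exit tunnel, with 0.11 ± 0.13 (adjusted p = 0.56).

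Rps21, a protein of the small subunit, had the largest fall of the genes that passed. It stood at 389 and 456 CPM with DMSO and at 278 and 254 CPM with isorhamnetin, a log2 fold change of -0.67 ± 0.13 (SE, n = 2, adjusted p = 0.0011). Rpl23, of the large subunit, stood at 861 and 887 CPM with DMSO and at 690 and 637 CPM with isorhamnetin, a change of -0.40 ± 0.08 (adjusted p = 0.000914). For both genes the libraries of the groups did not overlap. Rps26, at the mRNA exit channel, stood at 1044 and 1024 CPM with DMSO and at 765 and 836 CPM with isorhamnetin (-0.37 ± 0.08, adjusted p = 0.00164). Rpl8, at the peptidyl transferase centre, stood at 1337 and 1346 CPM and at 1072 and 1019 CPM (-0.36 ± 0.08, adjusted p = 0.00261). These falls held in each fit that left out 1 of the 12 libraries, with adjusted p of at most 0.0402.

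Genes with roles outside the ribosome followed the same course, not all past the threshold. Rpl11, which with Rpl5 binds Mdm2 and so stabilises p53, fell by 0.29 ± 0.10 (adjusted p = 0.029), from 656 and 684 to 560 and 532 CPM. Rpl5 stood at 1378 and 1346 CPM with DMSO and at 1184 and 1126 CPM with isorhamnetin, a change of -0.24 ± 0.10 that did not pass (adjusted p = 0.0792). Rps6 fell by 0.33 ± 0.08 (adjusted p = 0.00612) and Rpsa, also known as a laminin receptor, by 0.34 ± 0.09 (adjusted p = 0.00802). Of the stalk proteins Rplp2 fell by 0.25 ± 0.09 (adjusted p = 0.0429), while Rplp0 (-0.18 ± 0.10, adjusted p = 0.157) and Rplp1 (-0.24 ± 0.11, adjusted p = 0.104) did not pass. Summed with its copy Wdr89, Rplp2 did not pass either (-0.24 ± 0.09, adjusted p = 0.0519). Rpl38, needed for translation of Hox mRNAs in the mouse embryo, fell by 0.35 ± 0.10 (adjusted p = 0.0149).

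How many genes fell depended on the libraries and on the scaling. The WT DMSO libraries had TMM factors of 0.912 and 0.913, the lowest of the 12. With total exon reads alone as the scale, the median of all genes shifted to 0.17, that of the ribosomal protein genes was -0.12, and 5 fell: Rps21, Rps26, Rps27a, Rpl23 and Rpl8. Without the second WT isorhamnetin library 5 fell, without the first 29, without the second WT DMSO library 14 and without the first 24. In the authors' deposited table for this comparison 35 of the genes were lower at a false discovery rate under 0.05 and 0 were higher, with a median log2 fold change of -0.27.

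In Rictor-KO cells no ribosomal protein gene changed with isorhamnetin at the threshold in the main fit (0 higher and 0 lower by edgeR). With replicate number as a block 22 fell, beside 1417 of all 11808 genes called in either direction. The labels do not say that these numbers pair libraries, and deviations of same-numbered Rictor-KO libraries had a correlation of 0.447. In the main fit 4 were lower and 0 higher at an unadjusted p under 0.05, and DESeq2 called 1 lower and 0 higher. Over all genes 1.43% rose and 0.483% fell, so few genes of any kind passed. The median log2 fold change was -0.11, and 72 of the 81 values were negative. Rps21 stood at 415 and 326 CPM with DMSO and at 335 and 379 CPM with isorhamnetin, groups that overlapped (-0.053 ± 0.13, adjusted p = 0.913). The gene called by DESeq2 was Rpl21, at 361 and 360 CPM with DMSO and 299 and 284 CPM with isorhamnetin (-0.31 ± 0.08, adjusted p = 0.0691 by edgeR). The authors' deposited table for this comparison held 0 higher and 0 lower of these genes at a false discovery rate under 0.05.

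In GATA3-KO cells isorhamnetin raised ribosomal protein mRNAs. At the same threshold 27 of the 81 genes rose, 14 of the large and 13 of the small subunit, and 0 fell (0 at an unadjusted p under 0.05, 0 by DESeq2). Over all genes 10.2% rose and 15.9% fell. The median log2 fold change was 0.23, against 0.00 over all genes, and 71 of the 81 values were positive. The authors' deposited table also held 27 higher and 0 lower of these genes at a false discovery rate under 0.05, with a median of 0.25.

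Rps21 stood at 540 and 628 CPM with DMSO and at 803 and 939 CPM with isorhamnetin (0.58 ± 0.13, adjusted p = 0.00644), the direction opposite to that in WT. Rpl12, of the stalk base, stood at 1157 and 1399 CPM and at 1570 and 1896 CPM (0.44 ± 0.10, adjusted p = 0.00781). Rpl17, at the exit tunnel, stood at 1183 and 1479 CPM and at 1629 and 2058 CPM (0.47 ± 0.11, adjusted p = 0.00898). Rps14, a protein of the small subunit platform, stood at 955 and 1161 CPM and at 1320 and 1583 CPM (0.46 ± 0.11, adjusted p = 0.00954). In these genes every library with isorhamnetin lay above every DMSO library, and the replicates of each group lay well apart. Rpl13a, known in human monocytes as a silencer of inflammatory mRNAs, rose by 0.52 ± 0.13 (adjusted p = 0.0145), with 33.3% of its reads unique. Rps3, which also acts in NF-kB signalling, rose by 0.46 ± 0.12 (adjusted p = 0.0129), and Rpl5 by 0.37 ± 0.10 (adjusted p = 0.0161).

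These rises rested on particular libraries. Without the first GATA3-KO DMSO library, or without the second with isorhamnetin, 0 of the 81 genes were called, and the 4 genes of the smallest p had adjusted p between 0.102 and 0.157 in those fits. Without the second DMSO library 44 were called. In a fit of the 2 groups alone 11 were called.

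The response to isorhamnetin differed between GATA3-KO and WT for most of the ribosomal protein genes. In the test of that difference 61 of 81 were higher in GATA3-KO, 35 of the large and 26 of the small subunit, and 0 lower (0 at an unadjusted p under 0.05, 0 by DESeq2). Over all genes 12.4% were higher and 15.5% lower. The median difference was 0.51 on the log2 scale, against -0.02 over all genes, and 80 of 81 values were positive. By their calls in each genotype, 7 genes fell in WT and rose in GATA3-KO, 37 fell in WT and did not pass in GATA3-KO, 20 rose in GATA3-KO and did not pass in WT, and 17 passed in neither.

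**Figure D3:**
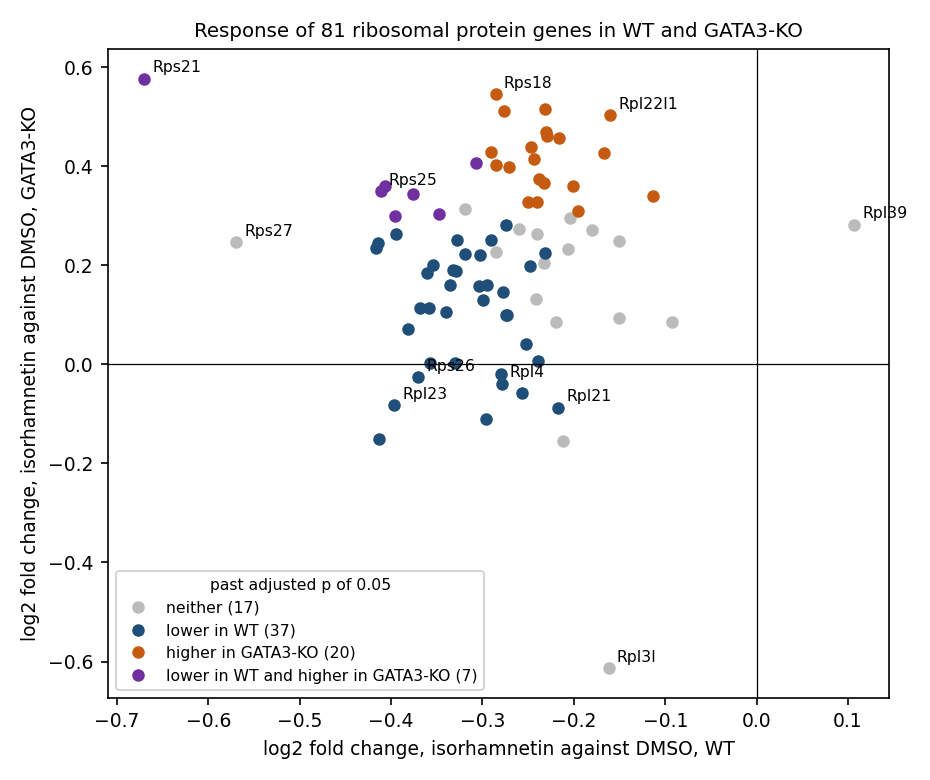
Log2 fold change with isorhamnetin of the 81 tested ribosomal protein genes in WT (horizontal) and GATA3-KO (vertical), 1 point per gene, coloured by which calls passed an adjusted p of 0.05. Rps21 lies farthest to the upper left at -0.67 and 0.58, and 80 of the 81 genes lie to the left of 0 in WT.

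Rps21 had the largest such difference of the named genes, 1.25 ± 0.18 (adjusted p = 0.000371). Rps9, at the mRNA entry of the small subunit, went from 1065 and 1090 to 847 and 813 CPM in WT. Its GATA3-KO levels went from 1440 and 1680 to 1834 and 2126 CPM, a difference in response of 0.72 ± 0.14 (adjusted p = 0.00219). Rps25, required for some internal ribosome entry sites, went from 1153 and 1139 to 870 and 853 CPM in WT. The GATA3-KO libraries went from 1489 and 1839 to 1902 and 2340 CPM (difference 0.76 ± 0.16, adjusted p = 0.00313). Rpl7l1, a paralogue of Rpl7, went from 318 and 332 to 266 and 229 CPM in WT and from 428 and 485 to 520 and 576 CPM in GATA3-KO (difference 0.66 ± 0.14, adjusted p = 0.00316). These differences passed in each of the 12 fits without 1 library, with adjusted p of at most 0.023. The count of 61 fell to 26 without the second GATA3-KO isorhamnetin library, 28 without the second WT DMSO library, 33 without the second WT isorhamnetin library and 38 without the first GATA3-KO DMSO library. With total exon reads alone as the scale, the median of all genes shifted to -0.16 and 40 of the ribosomal protein genes were called.

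For Rictor-KO the test of the same difference called 1 gene higher and 0 lower (0 lower at an unadjusted p under 0.05, 0 by DESeq2), against 6.65% and 7.11% of all genes. The gene was Rps21, with a difference of 0.62 ± 0.18 (adjusted p = 0.0382). That call was lost without the second WT DMSO library, either WT isorhamnetin library, or the second Rictor-KO library of either treatment, with adjusted p between 0.0506 and 0.181. It was also lost with total exon reads alone as the scale (adjusted p = 0.0796) and in a fit of only the groups compared (adjusted p = 0.0553). With replicate number as a block 39 of the ribosomal protein genes were called, beside 3596 of all 11808 genes. Rps21 was not among the 39 (adjusted p = 0.145). The median difference was 0.19, and 73 of the 81 values were positive. Both differences in response share the WT libraries.

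Under DMSO, ribosomal protein mRNAs stood higher in GATA3-KO than in WT cells, as levels relative to those of other mRNAs. Of 81 genes 64 were higher, 38 large and 26 small subunit genes, and 0 lower (0 at an unadjusted p under 0.05, while DESeq2 called 1 lower), beside 26.8% and 27.1% of all genes. The median log2 fold change was 0.41, against 0.01 over all genes. With the length trend described below taken out, 35 were called, higher or lower, with a median of 0.10. Under isorhamnetin 77 were higher, 46 and 31, and 0 lower (0 at an unadjusted p under 0.05, 0 by DESeq2), beside 29.6% and 32.1%, with a median of 0.93 against -0.02 over all genes. Both treatments called 63 of the genes higher. The other gene called under DMSO was Rpl3l (2.79 ± 1.10, adjusted p = 0.0464), which rests on 102 reads in all, mostly in GATA3-KO, and is no support for the count. Its call was lost with no filter on low counts (adjusted p = 0.115), with the length offset (0.0675) and by DESeq2 (0.0817). Leaving out 1 library gave 43 to 70 under DMSO and 77 to 78 under isorhamnetin.

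Rps10, of the small subunit beak, had 576 and 614 CPM in WT against 1010 and 1160 CPM in GATA3-KO under DMSO (0.87 ± 0.09, adjusted p = 2.92e-06), with 29.996% of its reads unique. Its isorhamnetin levels were 514 and 518 CPM in WT and 1197 and 1355 CPM in GATA3-KO (1.31 ± 0.09, adjusted p = 7.35e-08). Rpl36, of the large subunit, stood at 305 and 316 CPM and 573 and 658 CPM under DMSO (0.99 ± 0.11, adjusted p = 3.82e-06). With isorhamnetin these were 280 and 279 CPM and 664 and 800 CPM (1.39 ± 0.11, adjusted p = 1.59e-07). GATA3-KO libraries lay far above WT libraries in both genes and treatments. Rps28 had 161 and 202 CPM in WT against 362 and 443 CPM in GATA3-KO under DMSO (1.15 ± 0.15, adjusted p = 3.62e-05). Rpl22, an RNA-binding protein of the large subunit, stood at 296 and 300 CPM and 462 and 548 CPM (0.76 ± 0.10, adjusted p = 1.97e-05). Under isorhamnetin Rps21 was higher by 1.71 ± 0.13 (adjusted p = 1.99e-07) and Rps9 by 1.25 ± 0.10 (adjusted p = 2.05e-07). Rps19, a gene of Diamond-Blackfan anaemia in people, rose from 426 and 455 CPM in WT to 742 and 897 CPM in GATA3-KO under DMSO (0.90 ± 0.13, adjusted p = 7.59e-05).

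**Figure D4:**
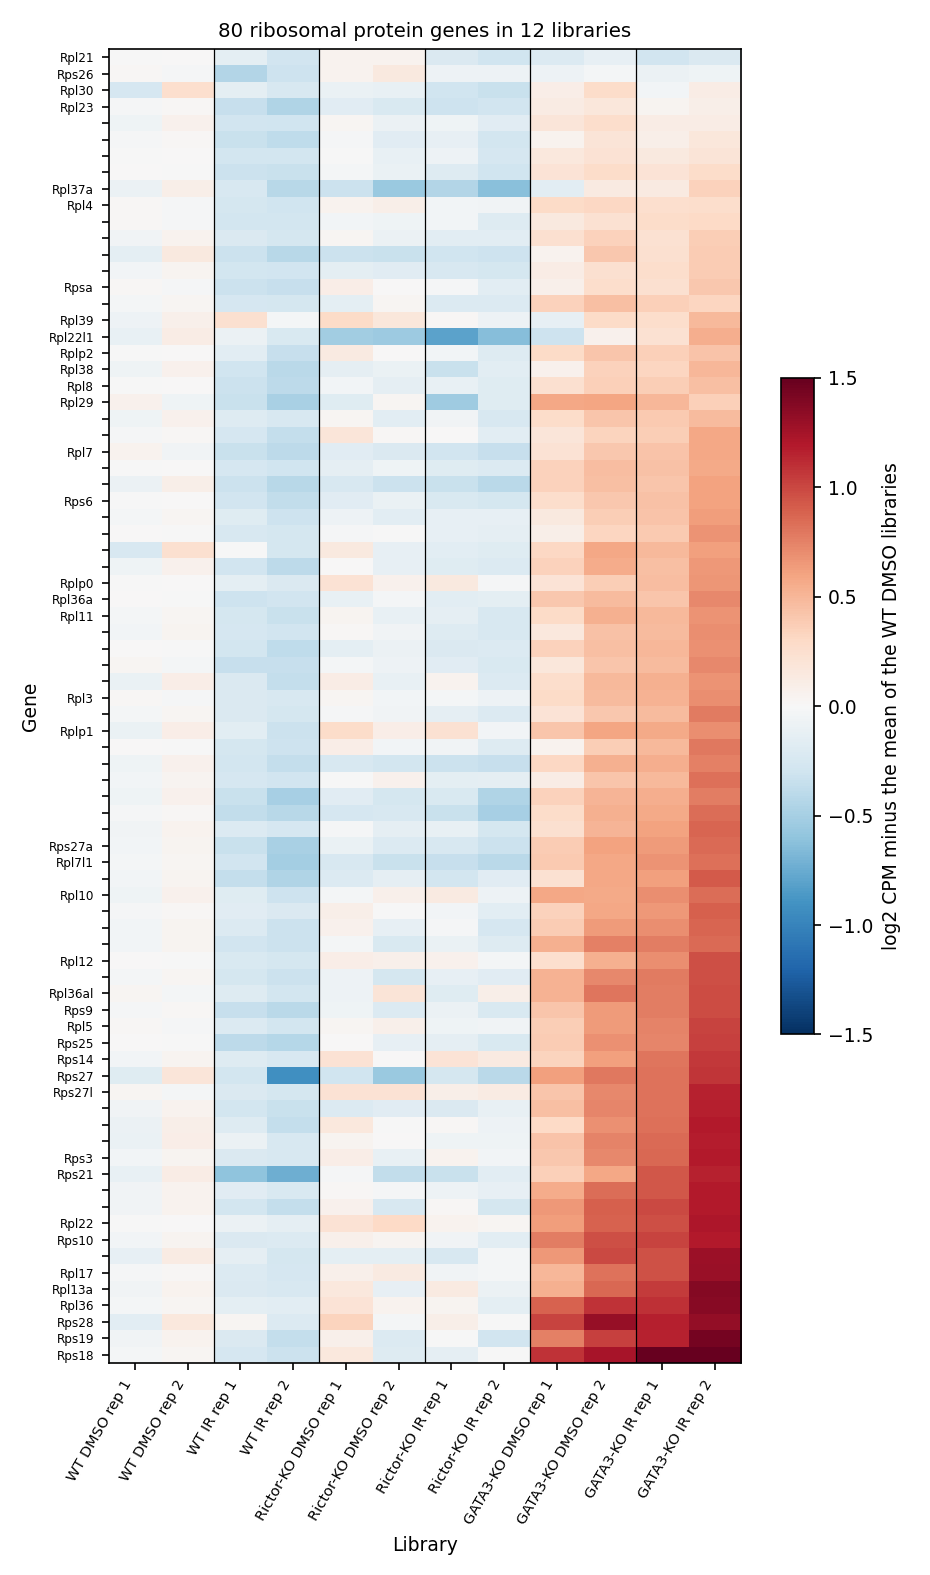
Level of the 80 ribosomal protein genes with a mean of at least 1 CPM in each of the 12 libraries, as log2 CPM minus the mean of the WT DMSO libraries (red higher, blue lower), with gene names for the genes described in the text. Genes are ordered by their mean in GATA3-KO with isorhamnetin: nearly all are raised there, with Rps18 at the bottom, while Rpl21 and Rps26 at the top are not.

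The 4 genes that were not called higher under isorhamnetin were Rpl21, Rpl30, Rpl39 and Rpl3l. Rpl21, of the large subunit, stood at 314 and 285 CPM in WT and at 286 and 300 CPM in GATA3-KO under isorhamnetin, groups that overlapped (-0.031 ± 0.08, adjusted p = 0.749). Its copy BC004004 was higher there (0.72 ± 0.09, adjusted p = 8.97e-06). Summed with that copy, Rpl21 stood at 0.15 ± 0.08 (adjusted p = 0.0967), so its own value depends on how reads are divided between them. Rpl39 stood at 225 and 187 CPM and at 229 and 267 CPM (0.27 ± 0.13, adjusted p = 0.0865). Rps26 was higher by 0.29 ± 0.08 (adjusted p = 0.00413), a value that its fall in WT with isorhamnetin enters, since its DMSO levels were 1044 and 1024 CPM in WT against 979 and 1015 CPM in GATA3-KO (-0.053 ± 0.08, adjusted p = 0.579). Rpl3l had 0 to 0.169 CPM in WT and 0.368 to 0.705 CPM in GATA3-KO.

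Between GATA3-KO and WT, short genes as a whole were higher, and the ribosomal protein genes are short. Under isorhamnetin the median log2 fold change of genes that are not ribosomal protein genes was 0.64 below 1000 bases of exon, 0.38 from 1000 to under 2000, 0.06 from 2000 to under 4000 and -0.35 from 4000 bases on. The ribosomal protein genes had medians of 0.89 (38 genes), 0.94 (32 genes) and 1.12 (10 genes) in the first 3 of these classes, and the only one of 4000 bases or more had 0.87. For isorhamnetin in GATA3-KO the medians of other genes ran 0.22, 0.16, 0.03 and -0.13, against 0.25, 0.22 and 0.26 for the ribosomal protein genes in the first 3 classes. In WT they ran from -0.06 to 0.03, against -0.29, -0.27 and -0.28. For GATA3-KO against WT under DMSO they ran 0.33, 0.21, 0.06 and -0.17, against 0.42, 0.40 and 0.50. For the difference between the responses of GATA3-KO and WT they ran 0.28, 0.15, 0.01 and -0.17, against 0.51, 0.50 and 0.51. The 25 other genes under 1000 bases with a mean log2 CPM of at least 8 had a median of 0.22 for isorhamnetin in GATA3-KO. Of these 40% rose and 4% fell, beside 33.3% and 0% of the ribosomal protein genes. The medians of these 25 were 0.09 and 0.33 in GATA3-KO against WT under DMSO and isorhamnetin, and -0.16 for isorhamnetin in WT. For the difference between the responses of GATA3-KO and WT their median was 0.25, and 32% were higher and 0% lower.

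With a length trend fitted on the other genes and taken out of each library, 58 ribosomal protein genes were higher and 5 lower in GATA3-KO under isorhamnetin, with a median of 0.44. Under DMSO 28 were higher and 7 lower, with a median of 0.10. The response to isorhamnetin in GATA3-KO then had 16 higher and 5 lower, with a median of 0.07, and its difference from that of WT 41 higher and 0 lower, with a median of 0.32. In WT 54 fell. Over all 11808 genes this setting called, in either direction, 6751 for GATA3-KO against WT under isorhamnetin and 6162 under DMSO. It called 2738 for isorhamnetin in GATA3-KO, 3087 for the difference in response and 4780 for isorhamnetin in WT. For GATA3-KO against WT under DMSO the ribosomal protein genes were then called less often than all genes. Under this setting Rps26 in GATA3-KO against WT under isorhamnetin turned to -0.35 and Rpl39 to -0.40, both past the threshold. What produced the length trend was not tested.

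**Figure D5:**
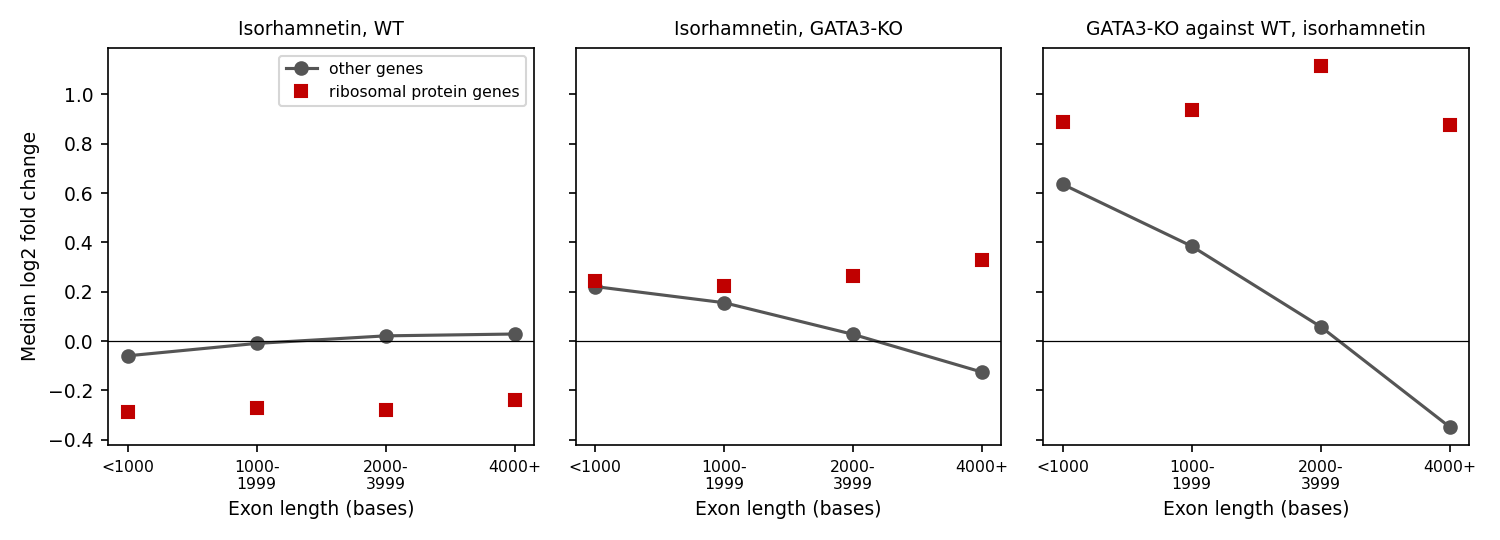
Median log2 fold change by exon length (bases) for other genes (grey circles, joined by a line) and ribosomal protein genes (red squares) in 3 comparisons. Other genes slope from 0.64 to -0.35 in GATA3-KO against WT under isorhamnetin and stay between -0.06 and 0.03 for isorhamnetin in WT; the last 2 classes hold 10 and 1 ribosomal protein genes.

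Between Rictor-KO and WT the ribosomal protein genes as a group moved little. Under DMSO 1 was higher and 6 lower, fewer than the 19.3% and 20.7% of all genes, with a median log2 fold change of -0.055. Under isorhamnetin 7 were higher and 1 lower, beside 9.36% and 12.7% of all genes, with a median of 0.13. With total exon reads alone as the scale, the median of all genes under DMSO shifted to 0.15, that of the ribosomal protein genes to 0.11, and 14 were higher and 1 lower. Of the 48 ribosome biogenesis genes described below, 22 were lower and 2 higher under DMSO, and under isorhamnetin 10 were higher and 0 lower (2 lower at an unadjusted p under 0.05, 1 by DESeq2).

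Rpl22l1, the paralogue whose mRNA Rpl22 represses in the mouse, was lower in Rictor-KO under both treatments. Its DMSO levels were 63.2 and 74.1 CPM in WT and 47.7 and 46.8 CPM in Rictor-KO under DMSO (-0.54 ± 0.13, adjusted p = 0.00534). With isorhamnetin they were 64.3 and 58.6 CPM and 39.3 and 43.8 CPM (-0.56 ± 0.13, adjusted p = 0.00753). The libraries did not overlap in either treatment. The call was lost under DMSO without the second WT DMSO library (adjusted p = 0.0724), and under isorhamnetin without the first WT library or the first Rictor-KO library (0.0632 and 0.0654). Its partner Rpl22 was the 1 gene higher under DMSO, at 347 and 367 CPM against 296 and 300 CPM (0.26 ± 0.10, adjusted p = 0.0484), a call lost in 8 of the 12 fits without 1 library (adjusted p up to 0.174).

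Other lower genes under DMSO included Rpl37a (-0.44 ± 0.12, adjusted p = 0.0111), at 464 and 524 CPM in WT and 394 and 335 CPM in Rictor-KO, and Rpl7l1 (-0.29 ± 0.10, adjusted p = 0.0271). Without the second WT DMSO library 0 genes were lower, and without the second Rictor-KO DMSO library 1, Rpl22l1, was. Under isorhamnetin Rps26 (0.29 ± 0.08, adjusted p = 0.0122), Rps14 (0.38 ± 0.11, adjusted p = 0.023), Rpl4 (0.23 ± 0.07, adjusted p = 0.0257) and Rps21 (0.43 ± 0.13, adjusted p = 0.0297) were higher, and each call was lost in 3 or 4 of the 12 fits. In this comparison 1 gene was higher without either WT isorhamnetin library or the first Rictor-KO isorhamnetin library, 3 without the second, and 4 without either WT DMSO library.

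Paralogue pairs did not move alike in every comparison. In GATA3-KO against WT under DMSO Rpl22 was higher by 0.76 ± 0.10, while Rpl22l1 stood at -0.12 ± 0.13 (adjusted p = 0.486), and the difference between the genes was not tested. Rpl22l1 rose with isorhamnetin in GATA3-KO by 0.50 ± 0.13 (adjusted p = 0.0139), from 55.1 and 71.6 to 80.3 and 99.4 CPM. Rps27l, a p53-induced paralogue, was higher in GATA3-KO under DMSO by 0.58 ± 0.11 (adjusted p = 0.000608), and Rps27, with 0.675% of its reads unique, by 0.69 ± 0.22 (adjusted p = 0.0242). Its copy Rps27rt was lower there (-2.87 ± 0.26, adjusted p = 3.32e-05), and summed with the copy Rps27 was higher by 0.35 ± 0.11 (adjusted p = 0.0184), so its own value depends on how reads are divided between them. Rpl36al, with 55.1% unique reads, was higher by 0.67 ± 0.12 (adjusted p = 0.000361) and Rpl36a by 0.44 ± 0.09 (adjusted p = 0.00109). Rpl7 and Rpl7l1 were higher by 0.32 ± 0.09 (adjusted p = 0.00667) and 0.49 ± 0.10 (adjusted p = 0.000643).

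Over the 12 libraries the genes followed each other closely, as a description of libraries that share their scaling. Pearson's r of a gene's log2 CPM with the mean of the 81 genes had a median of 0.976, and 76 of 81 were above 0.8. The 5 below were Rpl21 (-0.158), Rps26 (0.265), Rpl39 (0.573), Rpl30 (0.706) and Rpl22l1 (0.709). Of 7641 other genes with a mean log2 CPM of at least 4, the 5 most like that mean were Fau, Nme2, Tbca, Get4 and the copy Rps18-ps6, with r between 0.988 and 0.995. Fau, at 0.995, encodes the small subunit protein eS30 fused to a ubiquitin-like protein and was not taken by the rule on symbols.

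Genes with and without a pyrimidine run of at least 8 bases at the start had near medians. In WT with isorhamnetin the median log2 fold change was -0.28 over 29 genes with the run and -0.29 over 32 without. The difference between the responses of GATA3-KO and WT had medians of 0.54 and 0.51, and GATA3-KO against WT under isorhamnetin 0.87 and 1.00. Exon length and log2 fold change among the ribosomal protein genes had a Spearman correlation of 0.0653 for GATA3-KO against WT under isorhamnetin (n = 81 genes measured in the same libraries).

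Ribosomal proteins whose symbols the rule does not take include Fau, Rps3a1 and Rack1, a scaffold protein of the small subunit. With isorhamnetin in WT Fau fell by 0.36 ± 0.11 (adjusted p = 0.0145) and Rps3a1 by 0.27 ± 0.08 (adjusted p = 0.0158), while Rack1 did not pass (-0.23 ± 0.10, adjusted p = 0.0792). In GATA3-KO Rack1 rose by 0.33 ± 0.10 (adjusted p = 0.0234) and Fau by 0.31 ± 0.11 (adjusted p = 0.0423). Under isorhamnetin Fau was higher in GATA3-KO than in WT by 1.15 ± 0.11 (adjusted p = 7.58e-07), Rack1 by 0.98 ± 0.10 (adjusted p = 1.34e-06) and Rps3a1 by 0.51 ± 0.08 (adjusted p = 6.71e-05).

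Genes that build ribosomes fell with isorhamnetin in WT and were lower with DMSO and higher with isorhamnetin, more often than the reverse, in GATA3-KO against WT. Of 48 genes of ribosome biogenesis (rRNA processing, assembly, RNA polymerase I and Myc), 38 fell in WT with isorhamnetin, with a median log2 fold change of -0.47. They include Rrp12, an export factor of both subunits, at -0.81 ± 0.09 (adjusted p = 8.28e-06), and Tsr1, an assembly factor of the small subunit, at -0.72 ± 0.09 (adjusted p = 1.98e-05). In GATA3-KO 15 of the 48 fell and 3 rose with isorhamnetin (median -0.12), among them Tcof1, the treacle protein of the nucleolus, at -0.68 ± 0.10 (adjusted p = 0.00102). Against WT under DMSO 18 (37.5%) were lower and 3 (6.25%) higher in GATA3-KO, beside 27.1% and 26.8% of all genes, and under isorhamnetin 12 (25%) were lower and 24 (50%) higher, beside 32.1% and 29.6%. The medians were -0.11 and 0.21. In the difference between the responses 23 of the 48 were higher in GATA3-KO and 1 lower, beside 12.4% and 15.5% of all genes. For Rictor-KO 16 were higher, beside 6.65% of all genes. Over all genes 18.3% fell with isorhamnetin in WT, and in GATA3-KO 15.9% fell and 10.2% rose.

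Translation factors and other genes of known oligopyrimidine mRNAs mostly fell with isorhamnetin in WT and were split in GATA3-KO. Of 22, 16 (72.7%) fell in WT with isorhamnetin, beside 18.3% of all genes. Hnrnpa1, an RNA-binding protein, was among the 16, at -0.61 ± 0.07 (adjusted p = 2.58e-05). In GATA3-KO 4 (18.2%) rose and 7 (31.8%) fell, beside 10.2% and 15.9% of all genes. Those that fell include Pabpc1, the poly(A)-binding protein, at -0.55 ± 0.10 (adjusted p = 0.00171). In the difference between the responses of GATA3-KO and WT 14 (63.6%) were higher and 1 (4.55%) lower, beside 12.4% and 15.5% of all genes. Against WT under DMSO 8 (36.4%) were higher and 2 (9.09%) lower in GATA3-KO, beside 26.8% and 27.1% of all genes. Against WT under isorhamnetin 17 (77.3%) were higher and 4 (18.2%) lower in GATA3-KO, beside 29.6% and 32.1% of all genes. Eef1b2, an elongation factor subunit, stood at 0.94 ± 0.09 (adjusted p = 9.74e-07), and Vim, a cytoskeletal gene, at -1.72 ± 0.09 (adjusted p = 6.71e-09).

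Mitochondrial ribosomal proteins and respiratory chain subunits, also short genes, were higher in GATA3-KO. Of 78 mitochondrial ribosomal protein genes 50 were higher and 5 lower than in WT under DMSO and 62 and 2 under isorhamnetin, with medians of 0.33 and 0.63. Of 74 nuclear genes of oxidative phosphorylation 52 were higher and 1 lower under DMSO and 67 and 1 under isorhamnetin, with medians of 0.41 and 0.76. Over all genes 26.8% were higher and 27.1% lower under DMSO, and 29.6% and 32.1% under isorhamnetin. With isorhamnetin in GATA3-KO 28 mitochondrial ribosomal (35.9%) and 26 oxidative phosphorylation genes (35.1%) rose, beside 10.2% of all genes. In WT with isorhamnetin 11 mitochondrial ribosomal genes (14.1%) fell and 4 (5.13%) rose, fewer in both directions than the 18.3% and 19.8% of all genes, and of the oxidative phosphorylation genes 1, Ndufs8, a complex I subunit, rose (0.26 ± 0.09, adjusted p = 0.0418).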

How the data were processed

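Per the labels, Illumina libraries were made from column-purified total RNA of J774.1 cells. The authors deposited counts of exon and intron reads, total and unique, for each gene and library on GRCm38, per the submitters' processing notes, with no normalization. The tables that the authors deposited for 3 comparisons (log2 fold change, p-value, false discovery rate) were only described. The aligner, the counting program and the authors' test are not given in the sources used here. Among 12371 values of 1 to 4 reads 81.3% were even, so both reads of a pair may be counted, and counting error is then larger than the read number implies.

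The main analysis took total exon reads (edgeR 4.0.16, R 4.3.3). The filter filterByExpr kept 11808 of the 15156 genes that had an exon read, including 81 of the 83 ribosomal protein genes. All 12 libraries entered 1 fit with TMM scaling and 1 mean for each group. edgeR's robust quasi-likelihood F test (two-sided, 6 residual degrees of freedom, common biological coefficient of variation 0.11) gave p-values adjusted by the Benjamini-Hochberg method over 11808 genes within each of 9 contrasts. The threshold was 0.05, and counts of genes that rose, fell or were higher or lower hold genes past it. The ± of a log2 fold change is its standard error with n = 2 libraries per group, and the script was tested on simulated data. Copies were found with blastn 2.17.0 in GENCODE M21.

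The genes and lists were chosen with earlier results of these data known. Genes named are the 4 of smallest p that passed in each direction of each contrast at a mean log2 CPM of at least 1, paralogue pairs, the 3 highest and 3 lowest per kilobase, 12 genes of known further roles, and for other lists the smallest p. Rps27a, Rpl21, Rpl30, Rpl39 and Ndufs8 were named after their values were seen. Results of some genes that the rule names are not reported here. Alternatives were RLE and no scaling, TMM without the ribosomal protein genes, no filter, unique reads, a length offset, only the groups compared, DESeq2 1.42.0, a replicate block and each library left out. The sums with copies were added after seeing the data.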

Additional observations from a re-analysis of the deposited data

Results flagged for a closer look

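The response to isorhamnetin differed between GATA3-KO and WT for 61 ribosomal protein genes by the test of the difference itself. All were higher in GATA3-KO, beside 12.4% of all genes higher and 15.5% lower. Of other genes under 1000 bases of exon 20.1% were higher and 1.53% lower. Of 78 mitochondrial ribosomal protein genes 24 (30.8%) were higher and 0 lower (1 at an unadjusted p under 0.05). Of 74 oxidative phosphorylation genes 21 (28.4%) were higher and 0 lower, and of 22 translation factors and similar genes 14 (63.6%) and 1. With total exon reads alone as the scale 40 remained, and with the length offset 41. The count also depended on which libraries were included. Of the named genes, the difference was 1.25 on the log2 scale for Rps21, 0.72 for Rps9, 0.76 for Rps25 and 0.66 for Rpl7l1. Between Rictor-KO and WT the same test called 1 gene, Rps21, with a difference of 0.62. That call was lost in 5 of the 12 fits without 1 library, with no scaling (adjusted p = 0.0796) and with only the groups compared (adjusted p = 0.0553).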

How the results depend on the processing

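Of 7911 values of named genes under the alternatives, 7370 kept their side of the threshold, 317 lost the call and 216 gained one. Values that changed sign without a call in either fit are among the 7370. The other 8 changed sign with a call in either fit, all under the exon length offset. These were, in GATA3-KO against WT under isorhamnetin, Rpl22l1 (-0.12), Rpl23 (-0.027), Rpl37a (-0.063), Rpl39 (-0.40) and Rps26 (-0.35), and under DMSO Rpl39 (-0.28), Rpl8 (-0.033) and Rps6 (-0.010). The offset is built from length alone, and the cause of the other changes was not tested.

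For isorhamnetin in WT 44 genes fell, 5 without scaling and 70 with only the groups compared, and 5 to 50 without 1 library. In Rictor-KO 0 fell, 1 with the length offset and 1 by DESeq2. In GATA3-KO 27 rose, 16 with the offset (with 5 lower) and 11 with only the groups compared, and 0 to 44 without 1 library. For Rictor-KO against WT under DMSO 1 was higher, 0 with RLE, with TMM without the ribosomal protein genes and with the offset, 14 without scaling and 3 with only the groups compared, and 0 to 1 without 1 library. There 6 were lower, 1 without scaling, 15 with the offset and 10 by DESeq2, and 0 to 9 without 1 library. Under isorhamnetin 7 were higher, 11 without scaling, 4 with the offset and 11 by DESeq2, and 1 to 9 without 1 library, and 1 was lower, 2 with the offset, and 0 to 1 without 1 library. For GATA3-KO against WT under DMSO 64 were higher, 28 with the offset, and 43 to 70 without 1 library, and 0 lower, 7 with the offset and 1 by DESeq2. Under isorhamnetin 0 were lower, 5 with the offset. In the difference of the Rictor-KO response from that of WT, 1 was higher, 0 without scaling, 3 with the offset, 4 with only the groups compared (Rps21 not among them) and 4 by DESeq2, and 0 to 1 without 1 library, and 0 lower, 1 with the offset. In that of GATA3-KO 61 were higher, 40 without scaling, and 26 to 65 without 1 library. From unique reads the summed share was 5.33% in WT with DMSO and 4.87% with isorhamnetin.

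The labels do not say that replicate numbers pair libraries, and deviations of same-numbered DMSO and isorhamnetin libraries had correlations of -0.0334 in WT, 0.447 in Rictor-KO and 0.0667 in GATA3-KO. With the replicate block 70 genes fell in WT, 22 fell in Rictor-KO, 55 rose in GATA3-KO, and 39 differed between the responses of Rictor-KO and WT, Rps21 (adjusted p = 0.145) not among them.

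Depth limits Rpl3l, with 102 reads in 12 libraries, and 2 libraries per group limit every test.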
